A study of Tachysurus fulvidraco x Tachysurus vachelli with 6 samples.

Results

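Muscle and sarcomere genes were followed in the skin of juvenile hybrid yellow catfish (Tachysurus fulvidraco♀ × P. vachellii♂). A gene was included when its protein description held myosin, troponin, tropomyosin, titin, nebulin, parvalbumin, sarcoplasmic, sarcomer, creatine kinase or the word muscle, and unconventional myosins were left out. The rule found 16 of the 2451 genes with complete values, of which 9 had myosin, 9 the word muscle, 3 troponin, 1 sarcoplasmic and 1 creatine kinase in the description, and 0 had any of the other terms. Skin mRNA was sequenced in 3 control libraries, from juveniles kept in the recirculating system without transport. The 3 transport libraries came from juveniles that were starved, then sealed in oxygenated bags and shaken for 16 h to simulate transport. Whether the control juveniles were starved as well is not stated in the sources used here. All skin came from the left flank behind the dorsal fin, and since the sources used here do not say whether a library held the skin of an individual or of several fish, the p-values measure the spread between these libraries. Each gene has a read count and an FPKM, in which fragments are divided by the length of the transcript and by the number of fragments mapped in that library. Values of a group are given in the order of replicates 1, 2 and 3. The counts of the table summed to 3632651 to 4487002 per library, or 12.03% to 12.46% of all mapped reads, so the values cover a part of the transcriptome.

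The sarcomere is the contractile unit of striated muscle. Myosin thick filaments pull on actin thin filaments, and troponin on the thin filament holds this back until calcium is released from the sarcoplasmic reticulum. Skin itself has epidermis, dermis, pigment cells and vessels with smooth muscle, and in fish a thin sheet of slow red fibres lies directly beneath the skin of the flank, above the bulk of fast white muscle. The level of sarcomere transcripts in a skin library is taken here as a measure of how much muscle RNA the library held. In such bulk samples fewer muscle cells and less RNA per muscle cell cannot be told apart.

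Muscle and sarcomere transcripts were abundant in every library and differed most between control libraries. The summed FPKM of the 16 genes was 11802, 7859 and 2634 for control skin, and 2651, 4979 and 3585 for skin after transport. These sums were 23.8%, 16.5% and 5.75% of all FPKM in the table for the control libraries and 5.94%, 10.6% and 7.90% for the transport libraries. By summed FPKM, control replicates 1 and 2 were higher than every transport library. Control replicate 3 was lower than each of them, but close to transport replicate 1. The sums differed 4.48-fold among control libraries and 1.88-fold among transport libraries. The control mean was 7432 ± 4599 (SD, n = 3) and the transport mean 3738 ± 1171 (SD, n = 3), a log2 ratio of -0.99 between groups that overlapped, and without control replicate 1 the log2 ratio was -0.49. In read counts the 16 genes took 21.7% of the table in control replicate 1, with a 95% Wilson interval of 21.65% to 21.73% that covers counting error only. They took 4.96% in control replicate 3 (4.94% to 4.98%) and 4.80% in transport replicate 1 (4.78% to 4.83%). By counts, transport replicate 1 was therefore the lowest library, so the order of these 2 libraries depended on the measure.

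**Figure D1:**
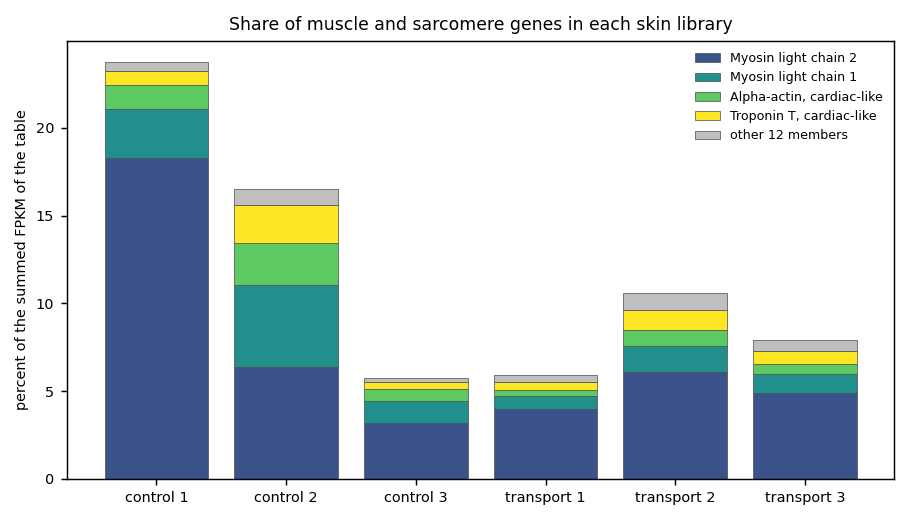
Percent of the summed FPKM of the table held by the 16 muscle and sarcomere genes in each library (bars from 0, stacked by gene). The share was 23.8% in control replicate 1 and 5.75% in control replicate 3, and myosin light chain 2 was the largest part in each library.

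A single transcript made up much of these sums. LOC113636033 is described as myosin regulatory light chain 2 of skeletal muscle, the phosphorylatable light chain on the neck of the myosin head. It held 76.9%, 38.4% and 55.7% of the FPKM of the 16 genes in control skin, and 57.3% to 67.3% in the transport libraries. Without it the sums of the other 15 were 2727, 4841 and 1168 in the control libraries and 867, 2127 and 1371 in the transport libraries. Control replicate 2 then took the highest place and transport replicate 1 the lowest, and the log2 ratio of the group means was -1.001. The remaining genes therefore placed the control libraries in another order than light chain 2 did.

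Most of the genes ranked the libraries alike. Of the 16, 14 had a mean FPKM of at least 0.5 and were tested. Control replicate 2 was the highest of all 6 libraries in 8 of these 14, against 15.9% of the 1620 genes tested. Control replicate 3 was the lowest in 6 and transport replicate 1 the lowest in another 6, against 10.2% and 10% of all genes. Within the transport group, 12 of the 14 followed the order replicate 2, replicate 3, replicate 1 from high to low, as did 23.7% of all genes. Within the control group, 9 of the 14 followed the order replicate 2, replicate 1, replicate 3, as did 11.9% of all genes. The genes outside both orders were the smooth muscle myosin light chain kinase LOC113634552 and LOC113635338, which is described as a myosin heavy chain. These shares are descriptions, since genes of the same cells are not independent. The ranks also rest on FPKM without TMM factors, in which control replicate 1 was the lowest of the 6 libraries for 63.3% of all genes.

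**Figure D2:**
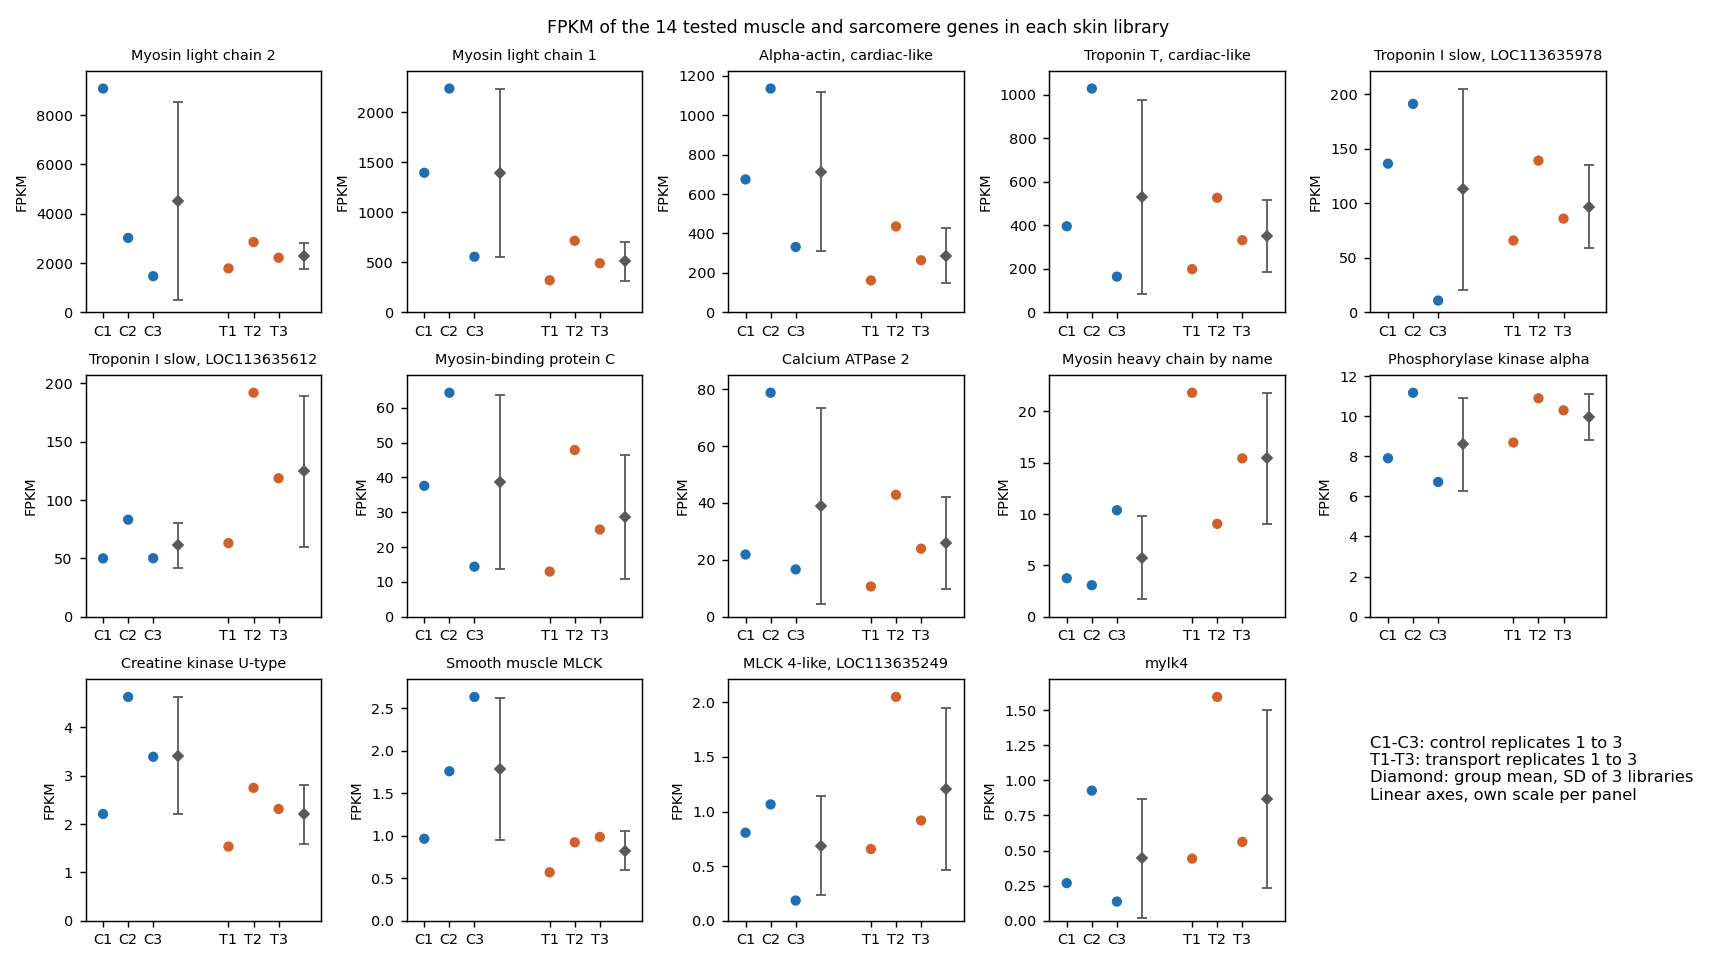
FPKM of the 14 tested genes in control libraries (C1 to C3) and transport libraries (T1 to T3), with the group mean and SD beside them (MLCK, myosin light chain kinase). In these FPKM, which are without TMM factors, groups overlapped in all 14 panels, and C2 was the highest point in 8 of them.

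None of the 14 tested muscle and sarcomere genes passed the main test, the quasi-likelihood test of edgeR, at a Benjamini-Hochberg threshold of 0.05. It called 0 of the 14, beside 0.617% of all 1620 genes (0.37% higher and 0.247% lower). By unadjusted p, with the same threshold, 1 of the 14 was higher and 4 were lower, and over all genes these shares were 7.72% and 9.14%, or 16.9% together. DESeq2 called 3 of the 14, all lower (myosin light chain 1, the cardiac-type actin and the smooth muscle kinase), and 9.51% of all genes (4.38% higher and 5.12% lower). In limma on log2(FPKM + 0.5) 0 of the 14 and 0.802% of all genes were called. Not one of the 14 had groups without overlap in FPKM, whereas 24.1% of all genes were higher and 3.7% lower without overlap. These FPKM are without TMM factors, and control replicate 1, with a factor of 0.712, was the lowest library for 63.3% of all genes. Both the overlap of the 14 and the shares of all genes depend on that scaling, and overlap after division by the factors was not computed. The log2 fold change was below 0 in 10 of the 14, against 52.0% of all genes, with a median of -0.82 against -0.02. The scaling between libraries bears on these values. TMM factors moved the log2 fold changes of all genes by -0.30 (median). Without them 9 of the 14 were below 0, against 26.2% of all genes, with a median of -0.52 beside 0.27 over all genes. The count of 4 lower genes was 7 without control replicate 3 and 1 without control replicate 2, transport replicate 1 or transport replicate 3. The shares of all genes at an unadjusted p were not computed for these settings, so the counts have no background beside them. Calls over all genes by adjusted p moved as well, from 10 to 65, 3, 0 and 0 in the same order of settings.

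**Figure D3:**
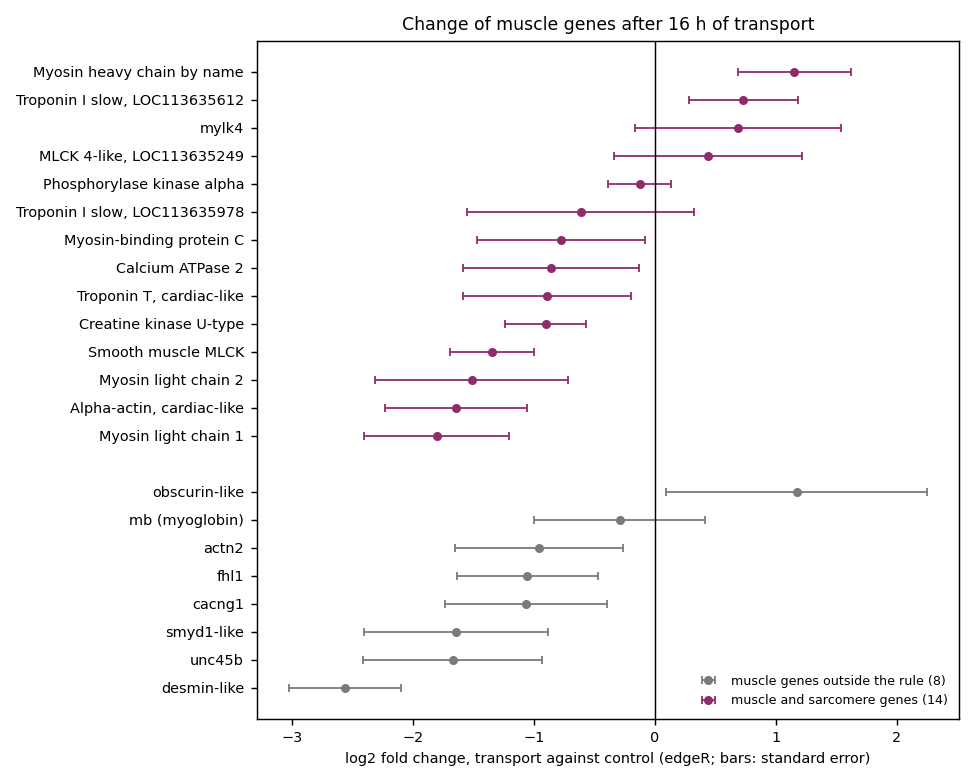
Log2 fold change after transport with its standard error from edgeR's test for the 14 muscle and sarcomere genes and for 8 muscle genes outside the rule (MLCK, myosin light chain kinase). Among the 14, estimates ran from -1.81 for myosin light chain 1 to 1.15 for the gene described as a myosin heavy chain, and 0 of the 22 were called.

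Among thick filament genes, myosin light chain 1 had the largest difference in size. LOC113636534, described as the cardiac muscle form of this essential light chain, had an FPKM of 1396, 2238 and 556 in control skin and 321, 716 and 491 after transport. All transport libraries lay below control replicates 1 and 2, but transport replicate 2 lay above control replicate 3. The log2 fold change was -1.81 (standard error, SE, 0.60, adjusted p = 0.210 by edgeR). Its adjusted p ranged from 0.0232 in DESeq2 to 0.558 without transport replicate 3, and it was 0.0405 without control replicate 3, where 4.01% of all genes were called.

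Light chain 2 had an FPKM of 9075, 3018 and 1467 in the control libraries and 1784, 2852 and 2214 in the transport libraries. Control replicate 1 stood far above the rest, and the other 5 libraries did not separate by group. sparc, which encodes a collagen-binding protein of the dermal matrix, was also highest in control replicate 1, with an FPKM of 4408, 282 and 1363 in control skin and 853, 2111 and 1322 after transport, and the part of that library's make-up in the light chain 2 value was not tested. The log2 fold change of -1.51 (SE 0.80, adjusted p = 0.378 by edgeR) became -0.12 without control replicate 1. Myosin-binding protein C (LOC113636698, cardiac type by description and marked as a low quality model), which ties thick filaments together and tunes contraction, had an FPKM of 37.6, 64.4 and 14.3 in control skin and 12.9, 47.9 and 25.03 after transport. Its groups overlapped widely, with a log2 fold change of -0.77 (SE 0.69).

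The gene described as a striated muscle myosin heavy chain, LOC113635338, went against its label. Its FPKM was 3.74, 3.06 and 10.4 in control skin and 21.8, 9.04 and 15.4 after transport, so that it was lowest in control replicate 2, where 8 other genes of the group were highest. The GO annotation in the table gives it GTP binding and no term of muscle. Its transcript length, as implied by count over FPKM, was 0.489 of that of myosin-binding protein C, although a sarcomeric heavy chain is the longer protein of the pair. Its log2 fold change of 1.15 (SE 0.47, unadjusted p = 0.0457, adjusted p = 0.287 by edgeR) was the only estimate above 0 with an unadjusted p under 0.05. Without control replicate 1, control replicate 2, transport replicate 1 or transport replicate 3 this unadjusted p was no longer under 0.05.

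The thin filament genes did not all go the same way. The alpha-actin gene LOC113636109, named after the cardiac actin of channel catfish (Ictalurus punctatus), had an FPKM of 674, 1135 and 332 in control skin and 162, 436 and 264 after transport. Only transport replicate 2 reached the lowest control library. The log2 fold change was -1.65 (SE 0.59, adjusted p = 0.233 by edgeR), and the adjusted p ranged from 0.0409 in DESeq2 to 0.593 without transport replicate 3.

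Troponin T anchors the troponin complex to tropomyosin. The gene LOC113635959, described as the cardiac form, had an FPKM of 396, 1029 and 164 in control skin and 198, 526 and 332 after transport. Control replicates gave both the highest and the lowest of the 6 values, and the log2 fold change was -0.89 (SE 0.70). Troponin I is the subunit that inhibits the contact of actin and myosin, and both troponin I genes were of the slow skeletal form. LOC113635978 had an FPKM of 136, 191 and 10.8 in control skin and 65.9, 139 and 85.9 after transport. The control values differed 17.7-fold, the widest spread of the 14 genes, and the log2 fold change of -0.61 (SE 0.94) was above 0 in limma, at 0.46 to 0.49.

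The second troponin I gene, LOC113635612, had the opposite estimate. Its FPKM was 49.9, 83.1 and 50.05 in control skin and 63.0, 192 and 119 after transport. Transport replicates 2 and 3 were above every control library, and transport replicate 1 was below control replicate 2. The log2 fold change was 0.73 (SE 0.45, adjusted p = 0.438 by edgeR) and stayed above 0 in all 16 other settings in which the gene was fitted on its own.

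The troponin genes lie together. On scaffold NW_020848201.1 all 3 are on the minus strand, with LOC113635959 from 3590094 to 3597613, LOC113635612 from 3641301 to 3645176 and LOC113635978 from 3657149 to 3663017. The gaps between them were 43687 and 11972 bases. The alpha-actin gene and the mitochondrial creatine kinase gene are on the same scaffold, at 2180007 to 2187173 and 4039780 to 4046250. Since neighbouring copies of troponin I can share reads, their split is uncertain, and with both copies summed 0 genes of the group were called by edgeR and 1 was higher and 4 were lower at an unadjusted p under 0.05. The neighbours did not keep a constant proportion, as LOC113635978 had 2.73, 2.30 and 0.216 times the FPKM of LOC113635612 in control skin and 1.05, 0.724 and 0.724 times after transport.

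Levels within a library were next compared between genes, since a ratio of 2 genes in a library does not depend on the scaling between libraries. FPKM ratios were taken for all 28 pairs of the 8 most abundant genes, a comparison chosen after the values had been seen. The ratio of light chain 1 to alpha-actin was 2.07, 1.97 and 1.68 in control skin and 1.98, 1.64 and 1.86 after transport. It varied 1.26-fold over all 6 libraries, the narrowest range of the 28 pairs. The ratio of troponin T to myosin-binding protein C varied 1.52-fold, from 10.5 to 16.0, and overlapped between groups.

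Ratios across these steady pairs were lower after transport, in comparisons picked after the values had been seen. Light chain 1 stood at 3.53, 2.18 and 3.39 times troponin T in control skin, and at 1.62, 1.36 and 1.48 times after transport. Alpha-actin stood at 1.70, 1.103 and 2.02 times troponin T in the control libraries and at 0.817, 0.828 and 0.797 times in the transport libraries. Against myosin-binding protein C, light chain 1 had ratios of 37.1, 34.8 and 38.8 in the control libraries and 24.8, 14.9 and 19.6 in the transport libraries. The groups did not overlap in any of these 3 comparisons, with the control libraries on the upper side, and the control mean was 2.04, 1.98 and 1.87 times the transport mean. An exact permutation test gave p = 0.1 (two-sided), the smallest that 3 against 3 libraries allow, and 0.233 after adjustment over the 28 pairs. The 3 comparisons share genes, and the genes within each steady pair moved together, so they are not 3 separate results. Among all pairs of tested genes above 0 in every library, 24.3% had groups without overlap.

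Troponin I LOC113635612 was the gene with the most such pairs. In 6 of its 7 pairs the groups did not overlap, with the troponin I gene higher after transport relative to its partner each time, and 13.0% of all genes were lower relative to it without overlap (0.803% higher). The control mean of the ratio of light chain 1 to it was 5.10 times the transport mean, that of alpha-actin 4.78 times and that of troponin T 2.72 times. With both troponin I copies summed as the denominator, light chain 1 had ratios of 7.499, 8.16 and 9.14 in control skin and 2.49, 2.16 and 2.40 after transport. The groups then still did not overlap for 4 of 6 partners (light chain 1, alpha-actin, troponin T and myosin-binding protein C), whereas they overlapped for light chain 2 and calcium ATPase 2 (exact permutation p = 0.2 each). The share of all genes without overlap was not computed for the summed denominator, so the 4 of 6 has no background beside it. The control mean of the ratio was then 3.52 times the transport mean for light chain 1, 3.42 times for alpha-actin and 1.81 times for troponin T, so the number and the size of these differences depended on whether the copies were summed. Over the 28 pairs, 12 or 42.9% had groups without overlap, where 24.3% of all pairs of tested genes above 0 in every library did. The light chain 2 gene, in contrast, overlapped in 6 of its 7 pairs.

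**Figure D4:**
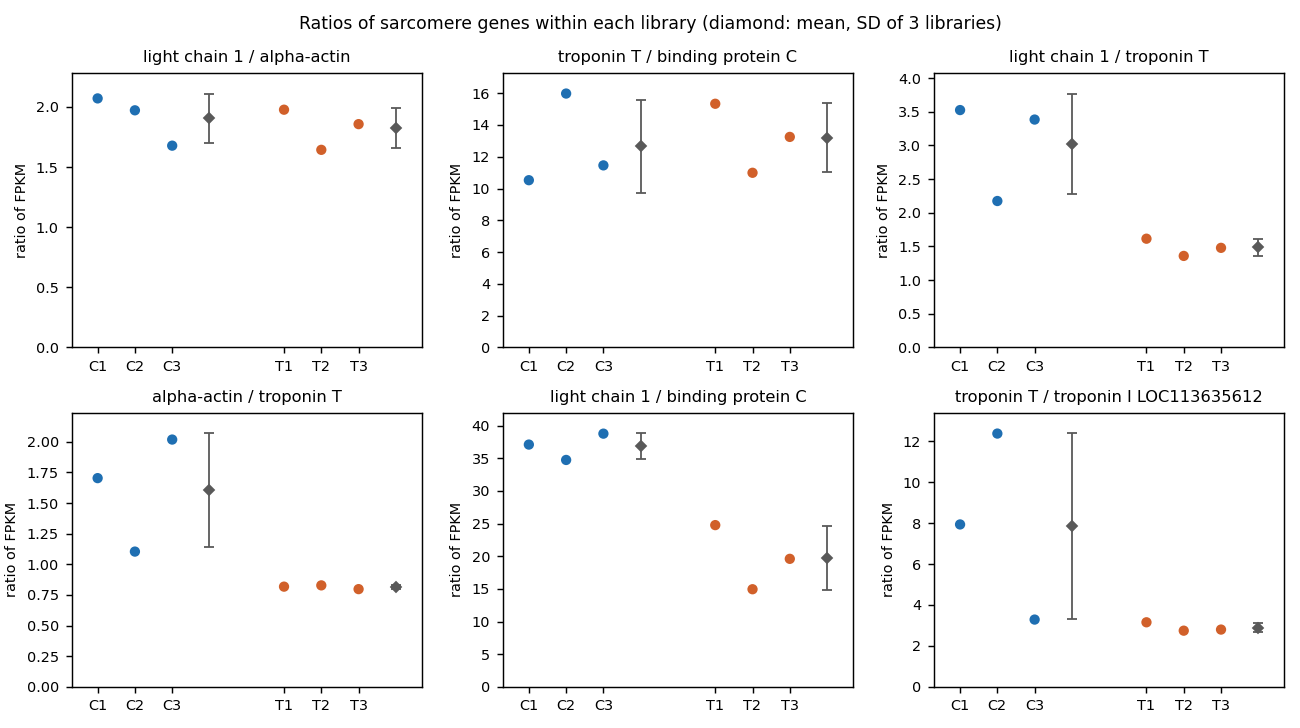
FPKM ratios of 6 gene pairs in each library (C1 to C3 control, T1 to T3 transport), with the group mean and SD beside them. The ratio of light chain 1 to alpha-actin was alike in all libraries (1.64 to 2.07), whereas both were lower relative to troponin T in all 3 transport libraries than in all 3 control libraries.

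Calcium handling and energy genes had smaller levels. LOC113634278, described as sarcoplasmic/endoplasmic reticulum calcium ATPase 2, the pump that refills the calcium store of slow and cardiac muscle and of many other cells, had an FPKM of 21.9, 78.8 and 16.6 in control skin and 10.6, 42.9 and 23.9 after transport. The groups overlapped, and the log2 fold change of -0.86 (SE 0.73) was -0.01 without control replicate 2. The alpha regulatory subunit of phosphorylase kinase (LOC113635167, a low quality model named after the skeletal muscle isoform), which links calcium to glycogen breakdown, had an FPKM of 7.91, 11.2 and 6.72 in control skin and 8.69, 10.9 and 10.3 after transport. Control and transport libraries overlapped, with a log2 fold change of -0.12 (SE 0.26) that was 0.21 without TMM factors. The U-type mitochondrial creatine kinase gene LOC113635572, which regenerates phosphocreatine in many tissues, had an FPKM of 2.21, 4.63 and 3.39 in control skin and 1.53, 2.75 and 2.31 after transport. Its log2 fold change was -0.90 (SE 0.33, unadjusted p = 0.0334, adjusted p = 0.247 by edgeR).

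Myosin light chain kinases phosphorylate the regulatory light chain and were expressed at low levels. The smooth muscle kinase gene LOC113634552, whose product drives contraction of vessel walls, had an FPKM of 0.966, 1.76 and 2.64 in control skin and 0.570, 0.924 and 0.988 after transport. Only transport replicate 3 exceeded the lowest control library, and it did so by a small margin. That control library was replicate 1, which in FPKM without TMM factors was the lowest for 63.3% of all genes tested. Whether the groups of this kinase overlap after scaling by the factors was not computed. This gene had the smallest p of the group, with a log2 fold change of -1.35 (SE 0.35, unadjusted p = 0.0072, adjusted p = 0.163 by edgeR). The adjusted p was 0.0076 in DESeq2 and up to 0.487 without transport replicate 3. It was highest in control replicate 3, where the summed FPKM of the 16 genes was lowest, and had the library order of most sarcomere genes in neither group. Its lowest value was in transport replicate 1, as was that of light chain 1, alpha-actin and some other genes of the group.

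The kinases of family member 4 had the order of libraries within each group that most sarcomere genes had, with transport replicate 2 the highest. mylk4 had an FPKM of 0.137 to 0.927 in the control libraries and 0.442 to 1.59 in the transport libraries, and LOC113635249 had 0.185 to 1.07 and 0.657 to 2.05. Their log2 fold changes of 0.69 (SE 0.85) and 0.44 (SE 0.78) were smaller than their errors. LOC113635250 lies within LOC113635249 on the opposite strand, with only a non-coding transcript record, and had 6 counts in transport replicate 3 and 0 in the other 5 libraries. The sources used here do not state whether counting used the strand, so these reads cannot be told apart from those of LOC113635249. The paramyosin-like gene LOC113636475 had 0 counts in every library, which allows up to 3 counts per library, or 6.7e-05% to 8.3e-05% of the counts in the table. Paramyosin is known as a thick filament protein of invertebrate muscle.

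Muscle genes outside the rule were taken from a separate list, of which 11 were in the table and 8 were tested. Of these 8, 0 were called by edgeR, beside 0.617% of all genes. The log2 fold change was below 0 in 7, against 52.0% of all genes, with a median of -1.06 against -0.02. Without TMM factors it was below 0 in 6, against 26.2%. By unadjusted p in edgeR 1 was lower and 0 higher, beside 9.14% and 7.72% of all genes. DESeq2 called 1, beside 9.51%, and limma on log2(FPKM + 0.5) called 0, beside 0.802%. Without control replicate 3, edgeR called 2 of the 8, beside 4.01% of all genes. It called 0 of the 8 when any other library was left out. The levels of the 11 summed to 468, 673 and 178 in control skin and 162, 416 and 252 after transport. The largest part of the sum in each library was the LIM domain gene fhl1. Its FPKM was 217, 342 and 84.1 in control skin and 89.6, 187 and 119 after transport. The sums kept the order of the sarcomere genes without light chain 2 within each group. The single genes did so less uniformly, as 3 of the 8 followed the control order and 5 of the 8 the transport order. Over all genes tested these shares were 11.9% and 23.7%. actn2, which encodes the alpha-actinin that crosslinks thin filaments at the Z disc, had an FPKM of 28.3, 79.7 and 12.9 in the control libraries and 14.3, 37.7 and 24.3 in the transport libraries. The muscle methyltransferase SMYD1-like gene LOC113634153, known in zebrafish for its part in sarcomere assembly, had 108, 184 and 24.97 and then 24.8, 64.4 and 40.8. Only the obscurin-like gene LOC113633981 had a log2 fold change above 0, at 1.17 (adjusted p = 0.599 by edgeR). Its FPKM was 1.05, 0.0589 and 0.348 in control skin and 3.03, 0.609 and 1.31 after transport, and the groups overlapped. The myoglobin gene mb had 94.2, 51.0 and 38.8 and then 24.5, 118 and 59.4. Its log2 fold change was -0.29, and its highest value was in transport replicate 2.

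The gene of this list with the smallest p was the desmin-like LOC113634430, an intermediate filament gene whose namesake is made in both striated and smooth muscle. Its FPKM was 3.98, 5.45 and 13.98 in control skin and 0.992, 1.61 and 2.00 after transport. The groups did not overlap, and those after transport were the lower ones. The log2 fold change was -2.56 (SE 0.47, adjusted p = 0.0749 by edgeR). Like the smooth muscle kinase, it was highest in control replicate 3, where the sarcomere genes were low.

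Genes of the skin itself were set beside the muscle values, and they did not follow a common order of libraries. evpl, which encodes the epidermal cytolinker envoplakin, had an FPKM of 3.93, 11.9 and 19.7 in control skin and 47.7, 30.4 and 41.7 after transport. agr2, which encodes a folding enzyme of mucin-secreting cells, had 61.1, 88.8 and 204 in the control libraries and 172, 97.1 and 148 in the transport libraries. Both were lowest in control replicates 1 and 2, the libraries with the most muscle RNA. Among the transport libraries both were lowest in replicate 2, again the one with the most. In FPKM, however, control replicate 1 was the lowest library for 63.3% of all genes tested, and control replicate 2 for 9.57%. The TMM factor of control replicate 1 was 0.712. A low FPKM in control replicate 1 is therefore not particular to evpl and agr2. The groups did not overlap for evpl, with a log2 fold change of 1.54 (adjusted p = 0.173 by edgeR), and they overlapped for agr2. The gene described as a myosin heavy chain had its 2 lowest values in the same control libraries as evpl and agr2, and its highest in transport replicate 1, like evpl.

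The other skin markers included some that ran with the muscle genes. The second tested keratinocyte marker, a plakophilin-3-like gene of desmosomes (LOC113636783), had an FPKM of 4.85, 3.78 and 3.73 in control skin and 2.55, 6.92 and 4.31 after transport, so it was not low in control replicate 1 and had the transport order of the muscle genes. The remaining gene on the keratinocyte list, claudin-15 (cldn15), was at most 0.0663 FPKM and was not tested. The pigment cell gene tyrp1, which encodes a melanin-synthesis enzyme, had 6.17, 4.80 and 2.07 in the control libraries and 0.511, 1.48 and 0.828 in the transport libraries. It was high in control replicates 1 and 2 and, among the transport libraries, in replicate 2, as the muscle sums were. Its groups did not overlap, with a log2 fold change of -2.61 (SE 0.67, adjusted p = 0.159 by edgeR). mlph, which encodes the melanosome linker melanophilin, had the full library order of most sarcomere genes, at 1.81, 2.33 and 1.54 in control skin and 1.04, 1.73 and 1.31 after transport. Its log2 fold change was -0.81 (SE 0.36), and its groups overlapped.

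The second mucous cell marker had a larger estimate than any muscle gene tested. The mucin-2-like gene LOC113635236 had an FPKM of 0.0384, 0 and 0.0223 in control skin and 8.59, 0.347 and 5.66 after transport, and at most 8 counts in a control library. Its groups did not overlap, and like evpl and agr2 it was lowest among the transport libraries in replicate 2. edgeR estimated a log2 fold change of 7.28 (SE 1.48, adjusted p = 0.101). The part of tissue make-up in the differences between control and transport skin was not tested.

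**Figure D5:**
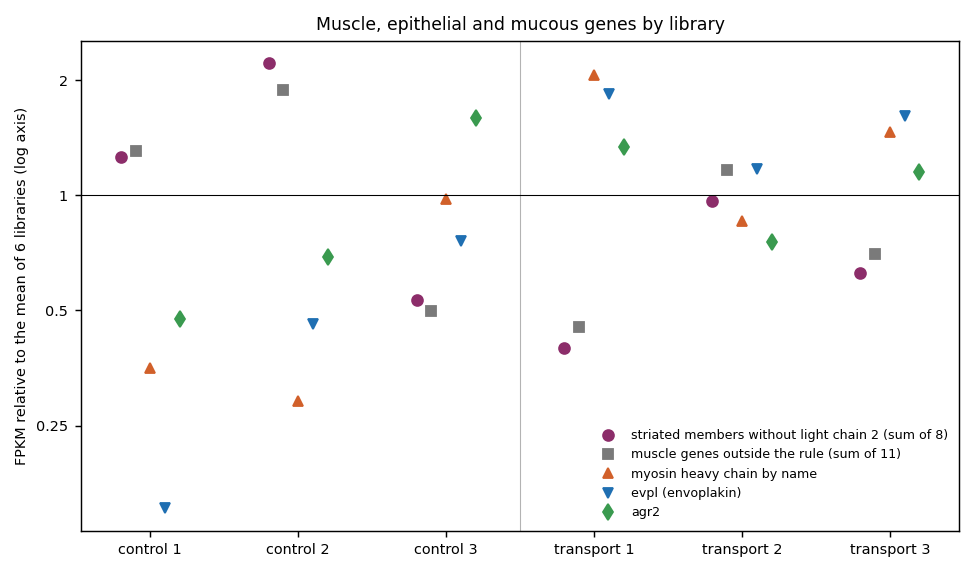
FPKM relative to the mean of the 6 libraries on a log axis for the sum of 8 striated muscle genes without light chain 2, the sum of 11 muscle genes outside the rule, the gene described as a myosin heavy chain, evpl and agr2. Muscle sums were above their mean in control replicates 1 and 2, where the other 3 genes were below theirs. Other tested skin markers are not drawn, and they did not all go as evpl and agr2 did. Among the transport libraries, the mucin-2-like gene was lowest in replicate 2, whereas the plakophilin-3-like gene, tyrp1, mlph and sparc were highest in it. The sum of 8 also includes the gene described as a myosin heavy chain, which had at most 21.8 FPKM in a library. Control replicate 1 was the lowest library for 63.3% of all genes tested.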

How the data were processed

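The table the authors deposited gives raw, whole-number read counts. It also gives FPKM, which the authors computed with StringTie from transcript length and mapped fragments. Per the labels and methods, reads were trimmed with Cutadapt, aligned with HISAT and assembled with StringTie. The sources used here give no versions, genome build or strandedness, and scaffolds are named as in the table. The study's methods name a human reference genome, whereas its results give reads mapped to the yellow catfish genome. Of 2452 rows 1 was incomplete and was dropped, and 12 columns of other samples were not used. Since the table covers a part of each library, library size was set to the total of mapped reads.

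Genes were kept when their FPKM averaged 0.5 or more, and the 1620 kept were fitted together with edgeR 4.0.16 in R 4.3.3 (TMM factors, 0.712 to 1.17, quasi-likelihood test, condition as the only term, Benjamini-Hochberg adjustment). Standard errors come from the estimate and its F statistic. The test was checked on simulated counts. DESeq2 1.42.0, limma 3.58.1, other scalings, filters and pseudocounts, a replicate block and leaving out each library were alternatives. Exact permutation tests were two-sided. Values in every library are given for the 10 genes of highest mean FPKM and for genes with an unadjusted p under 0.05. The genes, lists and tests were chosen with earlier results of these data known; summing the troponin I copies, leaving out the gene described as a myosin heavy chain, the gene pairs, the library orders and the skin genes shown were chosen after seeing the values. Libraries of a group differed far beyond sampling noise (chi-square per gene 48.3 to 756). Plots were drawn with matplotlib 3.10.9.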

Additional observations from a re-analysis of the deposited data

How the results depend on the processing

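The count of called genes of the group was 0 in edgeR's test and moved to 3 in DESeq2, and was 0 to 1 when leaving out each library in turn. The count of higher genes at an unadjusted p under 0.05 was 1, and moved to 2 without TMM factors and in limma with a pseudocount of 1, to 0 without the gene described as a myosin heavy chain, and to 0 to 1 when leaving out each library. The count of lower genes was 4, and moved to 2 in limma with pseudocounts of 0.5 and 1 and to 1 to 7 when leaving out each library. The cause was not tested, and the shares of all genes at an unadjusted p were not computed for these alternatives. The log2 ratios of the summed FPKM stayed below 0 in all alternatives run, from -1.42 with TMM factors to -0.44 for the median over the striated muscle genes. The estimate of LOC113635978 reversed to 0.48, 0.49 and 0.46 in limma with pseudocounts of 0.5, 0.1 and 1 and to 0.010 with the replicate block. That of LOC113635167 reversed to 0.21 without TMM factors and to 0.22, 0.24 and 0.21 in limma with the same pseudocounts, and ranged from -0.36 to 0.0061 when leaving out each library. Of the 12 genes given in every library, the other 10 kept their direction in every alternative.

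With the replicate block, 0 genes of the group were called, and 1 was higher and 4 were lower at an unadjusted p under 0.05, while calls over all genes went from 10 to 0; these were 154 in DESeq2 and 0 to 65 when leaving out each library. Deviations of same-numbered control and transport libraries correlated at -0.170, 0.0780 and 0.0991 across genes, so the numbers were not taken as pairs. Depth limited what can be said of LOC113635250 and LOC113636475, with 6 and 0 counts over all libraries.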
